A study of Mus musculus with 12 samples.

Results

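The Hox cluster genes were examined here in mouse embryonic fibroblasts: the 39 genes of the deposited tables, out of 24279, whose symbol is Hoxa, Hoxb, Hoxc or Hoxd followed by a paralogue number. The 4 groups of cells, with 3 libraries each, were primary fibroblasts from embryos at embryonic day 12.5. Wild-type and homozygous Rsg1L3P/L3P cells were taken from F3 mice fed either 2 ppm folic acid (called moderate) or 10 ppm (called fortified). Medium for the moderate cells held 225 ng/mL folic acid and that for the fortified cells 3600 ng/mL, so diet and medium changed together and cannot be told apart. Rsg1 encodes a small GTPase-like protein that takes part in building primary cilia. Whether libraries of the same group stem from different embryos is not stated, so p values measure the spread between libraries, which may be technical. The dissected region of the embryo is not given either, which matters for Hox genes because their level depends on body position.

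Hox genes encode homeodomain transcription factors that give cells their address along the body axis and, for the posterior members, along the limb. In mammals they lie in 4 clusters named A to D, and genes at the same place in different clusters descend from a common ancestor and share a paralogue number from 1 to 13. Low-numbered (anterior) genes are switched on early and near the head, high-numbered (posterior) genes later and toward the tail and the tips of the limbs. Fibroblasts keep much of the Hox pattern of the site they came from after they are put in culture. Polycomb proteins hold silent Hox genes off and trithorax proteins keep active ones on, while the TALE homeodomain proteins Pbx and Meis bind DNA together with Hox proteins. Anterior is used here for paralogue groups 1 to 3, central for 4 to 8 and posterior for 9 to 13.

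In mm10 the HoxA cluster ran from 52155590 to 52260880 on chromosome 6, on the minus strand, and held 11 members in 105.3 kb. HoxB ran from 96194316 to 96368256 on chromosome 11, on the plus strand, with 10 members in 173.9 kb. HoxC lay on the plus strand of chromosome 15 from 102921103 to 103036852 with 9 members in 115.8 kb, and HoxD on the plus strand of chromosome 2 from 74668310 to 74765142 with 9 members in 96.8 kb. Most members occupied their exons alone in the GENCODE annotation, with exceptions that limit how well reads can be assigned. Hoxd3 shared 62.3% and Hoxd4 52.3% of their exonic bases with other genes of the same strand, the gene model Gm28230 included. With each other they shared 9.26% and 13.2%, so their counts are not fully independent. On the opposite strand, 52.9% of Hoxb3 and 27.3% of Hoxb2 exonic bases lay under Hoxb3os and 35% of those of Hoxa11 under Hoxa11os. The strand setting of the counting is not given in the sources used here, so reads of such antisense pairs may not have been told apart. Hoxb9, Hoxd9, Hoxc13, Hoxd12 and Hoxd13, which carry the main results, shared no exonic base with another annotated gene.

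Promoters are shown for 4 members that the results turn on: Hoxd9, which was lower in fortified cells, the neighbouring pair Hoxd12 and Hoxd13, which were high in the same libraries, and Hoxb8, among the most variable members. RefSeq (GRCm38.p6) promoters were matched for 22 of the 39 members, not for Hoxb9 or Hoxc13. Each window is the 250 bases before the RefSeq start, 5′ to 3′; of the Hoxd9 window the 214 bases ahead of the GENCODE start are printed. Capitals mark matches on either strand to the CDX word TTTATNG, the Hox-Pbx word TGATTNAT, the retinoic acid receptor word AGGTCA, the E-box CACGTG or the TATA box word TATAAA.
Hoxd9 (GRCm38.p6, chr2:74697513-74697726, plus strand): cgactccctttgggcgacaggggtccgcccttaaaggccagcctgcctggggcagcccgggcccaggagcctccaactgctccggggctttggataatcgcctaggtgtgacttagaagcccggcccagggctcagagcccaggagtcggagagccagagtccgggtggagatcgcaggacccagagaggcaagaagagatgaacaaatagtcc
Hoxd12 (GRCm38.p6, chr2:74674763-74675012, plus strand): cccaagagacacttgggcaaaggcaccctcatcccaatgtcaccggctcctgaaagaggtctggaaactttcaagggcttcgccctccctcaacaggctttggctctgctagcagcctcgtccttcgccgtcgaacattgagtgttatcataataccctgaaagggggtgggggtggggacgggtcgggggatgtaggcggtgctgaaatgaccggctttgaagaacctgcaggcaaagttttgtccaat
Hoxd13 (GRCm38.p6, chr2:74667975-74668224, plus strand): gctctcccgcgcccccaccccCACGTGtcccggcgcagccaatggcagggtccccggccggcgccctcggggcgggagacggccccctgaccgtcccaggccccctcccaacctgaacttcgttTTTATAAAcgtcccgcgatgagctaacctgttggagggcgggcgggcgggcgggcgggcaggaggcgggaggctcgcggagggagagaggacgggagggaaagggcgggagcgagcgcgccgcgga
Hoxb8 (GRCm38.p6, chr11:96281655-96281904, plus strand): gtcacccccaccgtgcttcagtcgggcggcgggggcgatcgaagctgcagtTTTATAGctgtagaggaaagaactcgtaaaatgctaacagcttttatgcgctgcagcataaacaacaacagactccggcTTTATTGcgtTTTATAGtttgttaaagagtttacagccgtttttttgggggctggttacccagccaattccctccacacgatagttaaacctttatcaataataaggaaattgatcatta
The Hoxd13 window was rich in G and C (74.4%), with 31 CG dinucleotides, 7 GC boxes (GGGCGG, not capitalised), 1 E-box (CACGTG) and a pair of overlapping TATA words that read on both strands. The Hoxb8 window had 44.4% G and C and held 3 copies of TTTATNG, a word like the binding site of CDX proteins, and 2 of these overlapped TATAAA read on the opposite strand. TTTATNG occurred in 9.81% of 32851 RefSeq promoters of the same length and in 2 of 24 Hox windows, while GGGCGG occurred in 32.7% and in 10 of 24. Hox windows held a median of 12.5 CG dinucleotides against 6 over all promoters. AGGTCA, the retinoic acid receptor word, was in 6 of 24 Hox windows and 14% of all, CACGTG in 4 of 24 and 6.02%, TATAAA in 4 of 24 and 12.4%, and TGATTNAT, the Hox-Pbx word, in 2 of 24 and 2.82%. These matches are words in a window and were not tested as binding sites.

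Nearly the whole Hox complement was transcribed in these fibroblasts, with anterior, central and posterior members among it, though not up to the ends of every cluster. Between 36 and 38 of the 39 members reached 1 TPM in each library, where TPM is the deposited unit that corrects for gene length and library size. Hox genes together took 0.0338 to 0.0737% of the counts of a library and summed to 347 to 731 TPM. The single member that missed the low-count filter was Hoxb1, a gene of the hindbrain, which did not exceed 0.0829 TPM in any library, and 38 members were tested. Hoxb13 (mean 0.585 TPM, 0.0949 to 1.28) and Hoxd1 (mean 0.445 TPM, 0.0623 to 1.14) were the other two members with means under 1 TPM. Library depth was 39339200 to 48476000 estimated counts, at which counting error is small for the members at several CPM, the counts scaled to library size.

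**Figure D1:**
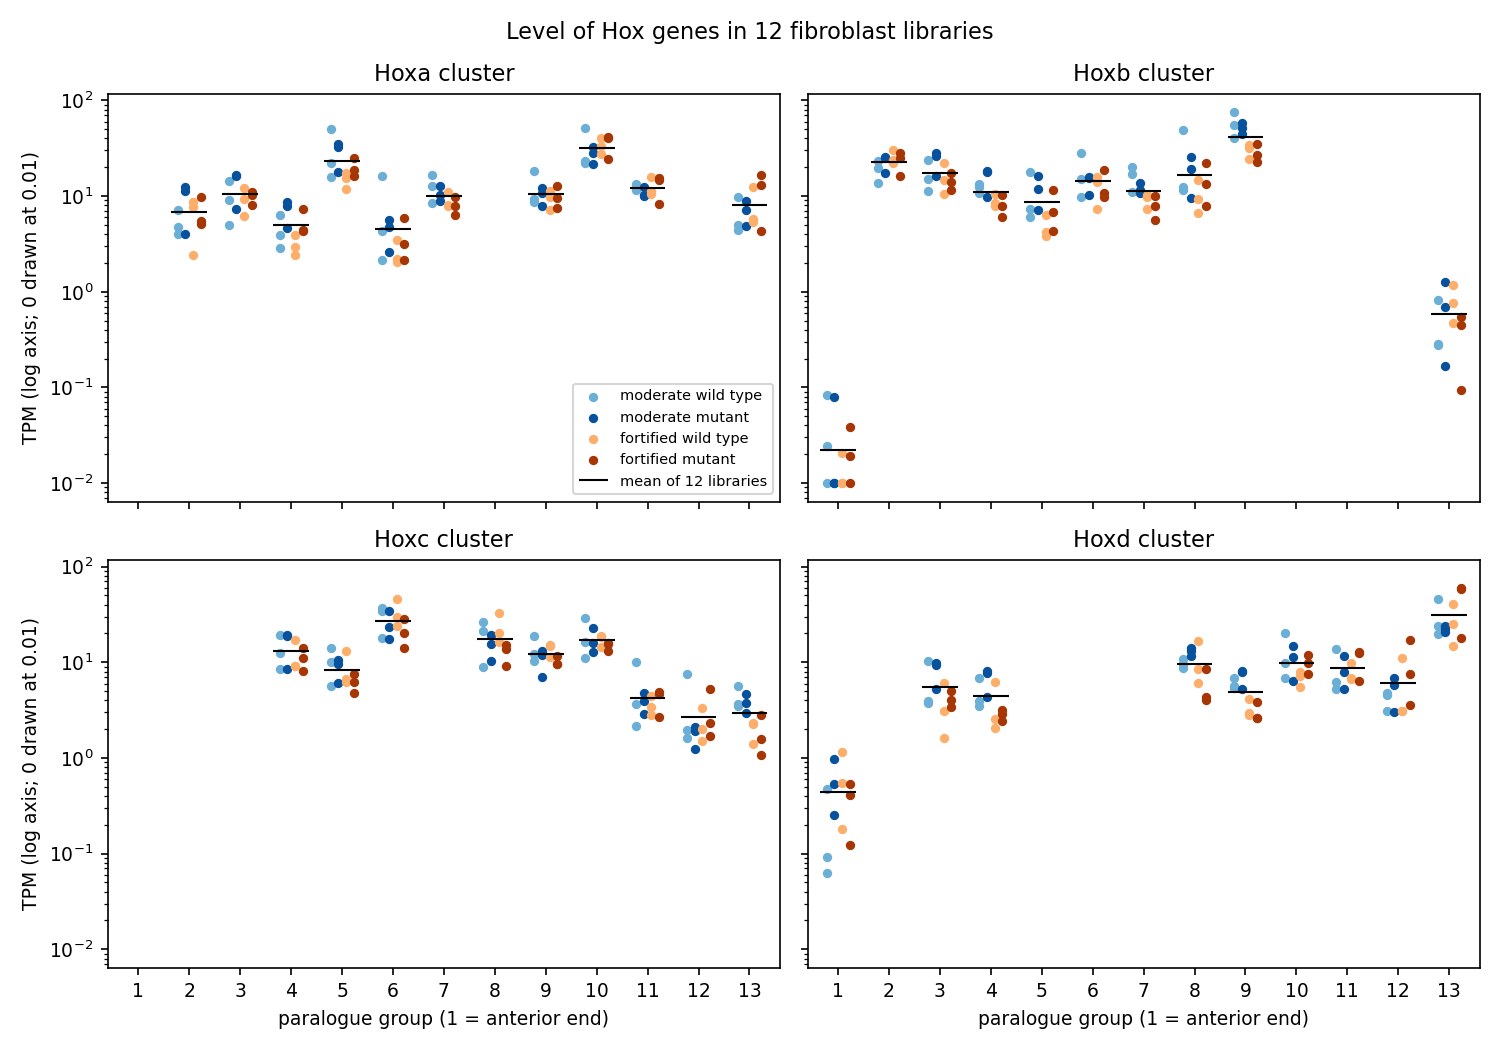
Deposited TPM (log axis) of Hox genes against its paralogue group, 1 panel per cluster. Points are the 12 libraries coloured by group and black lines their mean. Most members lie between 1 and 60 TPM, Hoxb9 has the highest mean (41.8 TPM) and Hoxb1 lies near 0.

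In the HoxA cluster the highest means were those of Hoxa10, known for uterine and lumbar patterning, and Hoxa5, which acts in the neck and lung. Hoxa10 stood at 51.0, 22.4 and 23.1 in the moderate wild-type libraries, 32.7, 28.2 and 21.8 in the moderate mutant, 33.4, 27.4 and 40.0 in the fortified wild-type and 41.1, 24.3 and 40.5 in the fortified mutant libraries, in TPM. Hoxa5 stood at 50.1, 22.2 and 15.9 in the moderate wild-type libraries, 35.4, 32.4 and 18.0 in the moderate mutant, 17.3, 11.8 and 15.5 in the fortified wild-type and 16.3, 25.3 and 18.9 in the fortified mutant libraries, in TPM. Moderate wild type 1 had the highest value of both genes, and Hoxa10 exceeded Hoxa5 in 9 of 12 libraries. Hoxa11 came next in the cluster, with a mean of 12.2 TPM.

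Within HoxB the leading genes were Hoxb9, a gene of the thoracic segments and rib cage, and Hoxb2, a gene of the hindbrain and neck. TPM of Hoxb9 was 75.6, 55.7 and 40.7 in the moderate wild-type libraries, 52.1, 58.1 and 44.3 in the moderate mutant, 34.3, 31.99 and 24.6 in the fortified wild-type and 27.0, 34.7 and 22.8 in the fortified mutant libraries. It was the highest HoxB member in 12 of 12 libraries and ranked 3792 among all 24279 genes by mean TPM. TPM of Hoxb2 was 23.2, 19.9 and 13.7 in the moderate wild-type libraries, 24.8, 25.5 and 17.5 in the moderate mutant, 30.3, 22.3 and 24.0 in the fortified wild-type and 24.8, 28.03 and 16.3 in the fortified mutant libraries. Hoxb2 varied little, with its highest library 2.21 times its lowest. The gap at the posterior end of this cluster was wide, since groups 10 to 12 are missing from HoxB and Hoxb13 was near the limit of detection.

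HoxC was led by Hoxc6, expressed in the thoracic region, and Hoxc8, expressed in the trunk behind it. Levels of Hoxc6, in TPM, were 37.0, 34.0 and 18.0 in the moderate wild-type libraries, 34.3, 23.5 and 17.7 in the moderate mutant, 46.1, 29.8 and 23.8 in the fortified wild-type and 20.2, 28.3 and 14.1 in the fortified mutant libraries. Levels of Hoxc8, in TPM, were 26.6, 21.3 and 8.92 in the moderate wild-type libraries, 19.1, 15.5 and 10.3 in the moderate mutant, 32.7, 20.3 and 16.2 in the fortified wild-type and 13.9, 15.01 and 9.20 in the fortified mutant libraries. Fortified wild type 1 was the highest library for both. Hoxc6 led the cluster in 11 of 12 libraries, and the posterior members Hoxc11, Hoxc12 and Hoxc13 had means of only 4.20, 2.71 and 2.98 TPM.

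In HoxD the last gene of the cluster led it. Hoxd13, which patterns digits and the genital bud, was at 45.6, 19.7 and 23.8 in the moderate wild-type libraries, 22.2, 20.6 and 23.8 in the moderate mutant, 14.8, 25.3 and 40.7 in the fortified wild-type and 60.3, 18.1 and 58.2 in the fortified mutant libraries, in TPM. Hoxd10, a gene of the lumbar cord and limb, was at 20.3, 9.92 and 6.84 in the moderate wild-type libraries, 14.8, 11.3 and 6.41 in the moderate mutant, 7.94, 5.49 and 7.18 in the fortified wild-type and 9.74, 7.50 and 11.8 in the fortified mutant libraries, in TPM. Hoxd13 was the top HoxD member in 11 of 12 libraries, with a mean of 31.1 against 9.94 TPM for Hoxd10, but its 12 values spread over a 4.09-fold range. Members of paralogue group 13 thus ranged in mean from 0.585 TPM (Hoxb13) over 2.98 (Hoxc13) and 8.15 (Hoxa13) to 31.1 (Hoxd13).

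In most paralogue groups the same gene led in nearly every library although absolute levels differed. Hoxb2 led group 2, Hoxb3 group 3, Hoxa5 group 5, Hoxc6 group 6, Hoxb9 group 9, Hoxa10 group 10 and Hoxd13 group 13 in 12 of 12 libraries. Hoxa11 led group 11 in 11, Hoxc4 group 4 in 10 and Hoxd12 group 12 in 10 of 12. Only in groups 7 and 8 was the lead divided, with Hoxb7 above Hoxa7 in 7 of 12 libraries and Hoxb8 highest of its group in 6 of 12. Group 9 had the largest summed level (mean 69.3 TPM, 48.5 to 119.7 over libraries).

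Hox levels varied between libraries within and across groups. The median SD of log2 CPM over the 12 libraries was 0.49 for the 38 tested members and 0.41 for all 15186 tested genes. Among members with a mean of at least 1 TPM the SD was largest for Hoxd12 (0.85), Hoxa6 (0.75), Hoxb8 (0.74) and Hoxd13 (0.73). In CPM, used from here on to compare libraries, Hoxa6 was at 3.98, 1.11 and 0.665 in the moderate wild-type libraries, 1.10, 1.32 and 0.650 in the moderate mutant, 0.938, 0.680 and 0.611 in the fortified wild-type and 0.654, 0.993 and 1.69 in the fortified mutant libraries. Moderate wild type 1 alone held the highest Hoxa6 value, above all other libraries by more than 2-fold. Hoxb8, a gene of the trunk that also acts in blood progenitors, was at 55.8, 13.9 and 18.1 in the moderate wild-type libraries, 21.0, 27.8 and 11.1 in the moderate mutant, 18.5, 13.7 and 9.14 in the fortified wild-type and 11.2, 32.7 and 18.0 in the fortified mutant libraries. Its highest libraries were moderate wild type 1 and fortified mutant 2, and the groups overlapped.

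Some libraries lay at the upper or lower end for many members, though how much of the spread any of them carried was not measured. Moderate wild type 1 had the highest CPM of 16 of 38 members and was among the top 3 libraries for 23, whereas moderate mutant 3 had the lowest of 11 members and the highest of 0. The mean of the 38 members, each taken as log2 CPM minus its own mean, was 0.53 in moderate wild type 1 and -0.38 in moderate mutant 3, with the other libraries between -0.19 and 0.21. Moderate wild type 1 and fortified mutants 2 and 3 lay together at the upper end of the leading axis of a principal component fit of all tested genes (68.0, 48.1 and 57.5). Moderate wild type 2 and 3 lay about as far out at the opposite end (-68.6 and -53.7). Moderate wild type 1 and fortified mutants 2 and 3 also had the highest scores of the 12 skeletal muscle markers and the 12 neuron markers among all 12 libraries. The part of these markers in the Hox levels was not tested. The 10 fibroblast markers were present in every library, with summed levels of 6728 to 12909 TPM for wild-type cells on moderate folic acid, 11422 to 12108 for their mutant counterparts, 14504 to 20504 for fortified wild type and 8774 to 11565 for fortified mutants. In bulk RNA a change in how many cells of a region were present and a change of RNA per cell cannot be told apart.

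**Figure D2:**
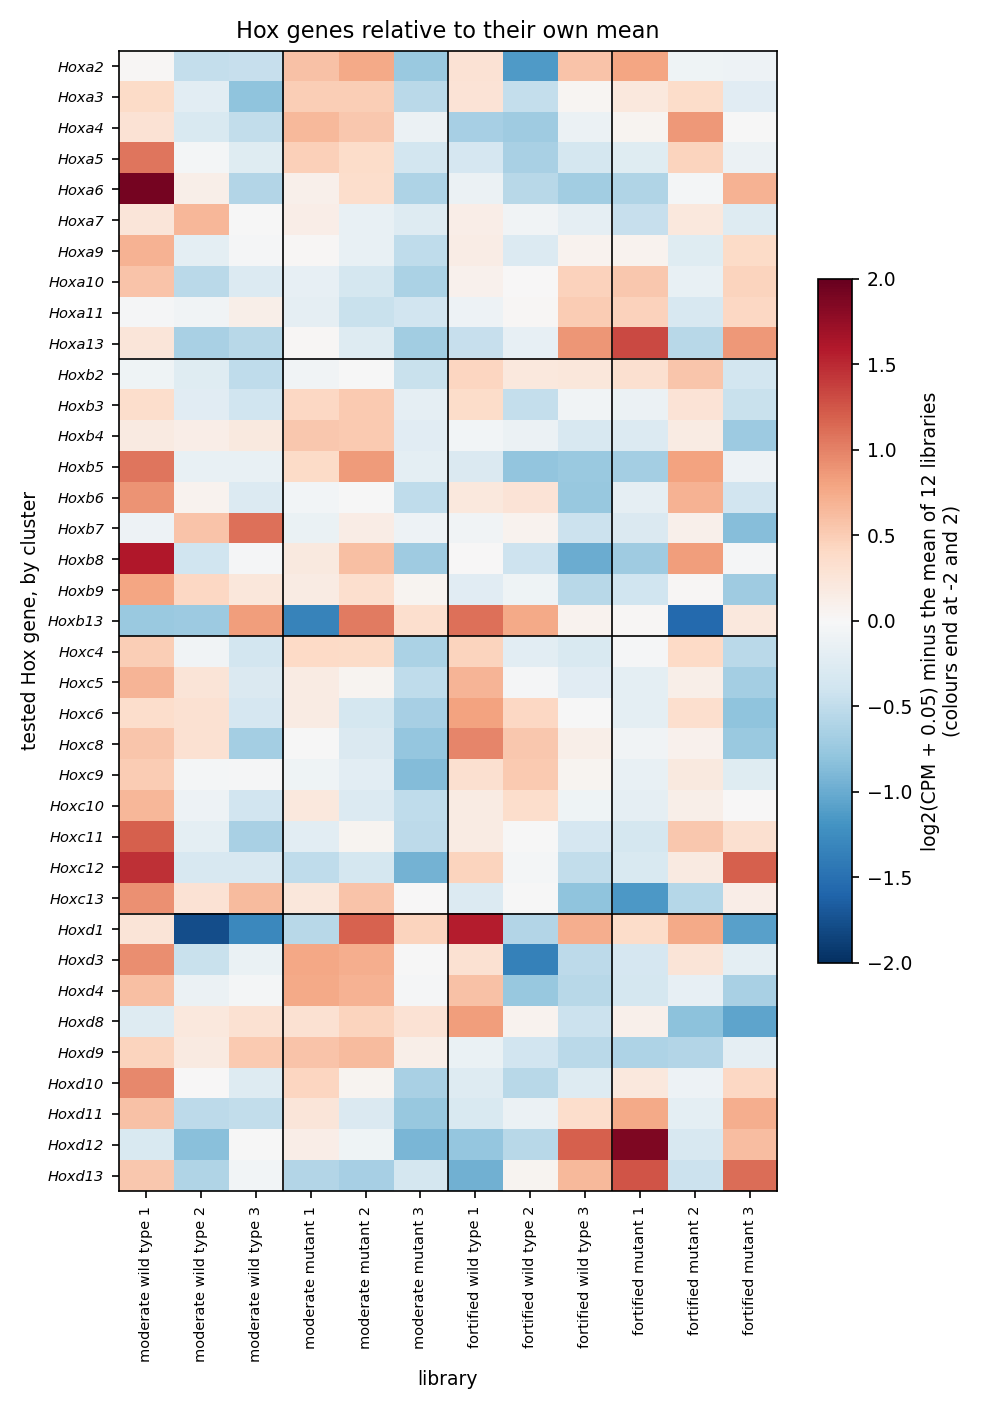
Colour shows log2(CPM + 0.05) of tested Hox genes (rows, by cluster) minus its mean over the 12 libraries (columns, by group). Moderate wild type 1 is red for most genes, and Hoxa13, Hoxd12 and Hoxd13 are red in fortified wild type 3 and fortified mutants 1 and 3.

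The far posterior genes Hoxa13, Hoxd12 and Hoxd13, all of them genes of the distal limb, were highest in the same 3 libraries. Hoxd12 was at 5.19, 3.55 and 6.33 in the moderate wild-type libraries, 7.04, 6.04 and 3.38 in the moderate mutant, 3.73, 4.33 and 14.8 in the fortified wild-type and 23.4, 5.09 and 9.79 in the fortified mutant libraries, in CPM. Hoxd13 was at 48.9, 22.2 and 32.3 in the moderate wild-type libraries, 22.4, 21.1 and 26.2 in the moderate mutant, 17.3, 35 and 52.8 in the fortified wild-type and 80.2, 24.9 and 73.1 in the fortified mutant libraries, in CPM. For Hoxa13 the values were 5.17, 2.78 and 2.96 in the moderate wild-type libraries, 4.43, 3.62 and 2.68 in the moderate mutant, 3.14, 3.90 and 8.07 in the fortified wild-type and 10.9, 2.96 and 8.04 in the fortified mutant libraries. All 3 genes had their top 3 values in fortified mutant 1, fortified mutant 3 and fortified wild type 3, while fortified mutant 2 and fortified wild type 1 and 2 lay among the moderate libraries for Hoxa13 and Hoxd12. Paralogue group 13 made up 18.1, 18.3 and 13.98% of Hox TPM in those 3 libraries and 4.88 to 9.48% in the other 9. The set of 3 genes was picked after its values had been seen, and the pattern was not confined to it. Hoxa11 had the same top 3 libraries by CPM. Hoxd11 was highest in fortified mutants 1 and 3, followed by moderate wild type 1 and fortified wild type 3.

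Of 12 limb mesenchyme markers 3 were higher in each of these libraries than in any of the other 9, and 9 overlapped. The libraries were singled out by their Hox values. The share of all genes that lay above in the same split was not counted, so 3 of 12 has no background beside it. Msx1, a homeobox gene of the limb bud, was at 89.98, 47.1 and 47.3 TPM in fortified mutant 1, fortified mutant 3 and fortified wild type 3 and at 7.93 to 28.9 TPM in the other libraries. Prrx2, a gene of limb and craniofacial mesenchyme, was at 176, 92.6 and 137 TPM against 30.0 to 87.5. Tbx4, a hindlimb gene, was at 14.02, 12.8 and 13.3 TPM against 5.42 to 11.3. Other markers lay toward the low end there, with overlap: Grem1, a BMP antagonist of the limb bud, was at 21.3, 11.4 and 16.0 TPM against 13.57 to 324, and Shh, the signal of the posterior limb margin, at 0.323, 0.924 and 0.748 TPM against 0.876 to 1.83. Grem1, Shh and Hoxa11os were picked after their values were seen. Hoxa11os, the antisense partner of Hoxa11, was at 14.96, 11.4 and 10.8 TPM against 5.98 to 9.28. Over the whole list of 12 limb mesenchyme markers, of which 12 were tested and none was at 0, the score was 0.44, 0.18 and 0.31 in these libraries and -0.51 to 0.18 elsewhere, so on the whole list fortified mutant 3 and moderate mutant 3 were nearly equal. The summed level of the list was 397 to 658 TPM for wild-type cells on moderate folic acid, 449 to 640.2 for their mutant counterparts, 407 to 528 for fortified wild type and 251 to 632 for fortified mutants. Its part in the levels of the posterior Hox genes was not tested.

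Shares of Hox TPM by position, which sum to 100%, include Hoxa13, Hoxd12 and Hoxd13 among the posterior members and so partly restate how these libraries were singled out. Posterior members made up 55.3, 58.4 and 52.3% of Hox TPM in fortified mutants 1 and 3 and fortified wild type 3, and 36.8 to 47.4% in the other 9 libraries. Central members held 30.0, 29.8 and 32.1% against 39.7 to 46.3%. With Hoxa13, Hoxd12 and Hoxd13 taken out of both sums, the posterior share was 42.9, 48.4 and 42.9% against 32.8 to 41.9%, and the central share 38.3, 37.0 and 38.3% against 43.7 to 49.1%. By group, with all members, the posterior share was 44.9 ± 2.69% for wild-type cells on moderate folic acid, 41.5 ± 3.42% for their mutant counterparts, 45.2 ± 7.85% for fortified wild type and 50.2 ± 11.6% for fortified mutants (SD, n = 3 each). The fortified groups spread more widely than the moderate ones and overlapped them. Anterior members held 11.3 to 12.3% in moderate wild type and 14.9 to 17.9% in moderate mutant libraries, which did not overlap, while the fortified groups did overlap (12.6 to 16.9% and 11.7 to 17.0%).

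**Figure D3:**
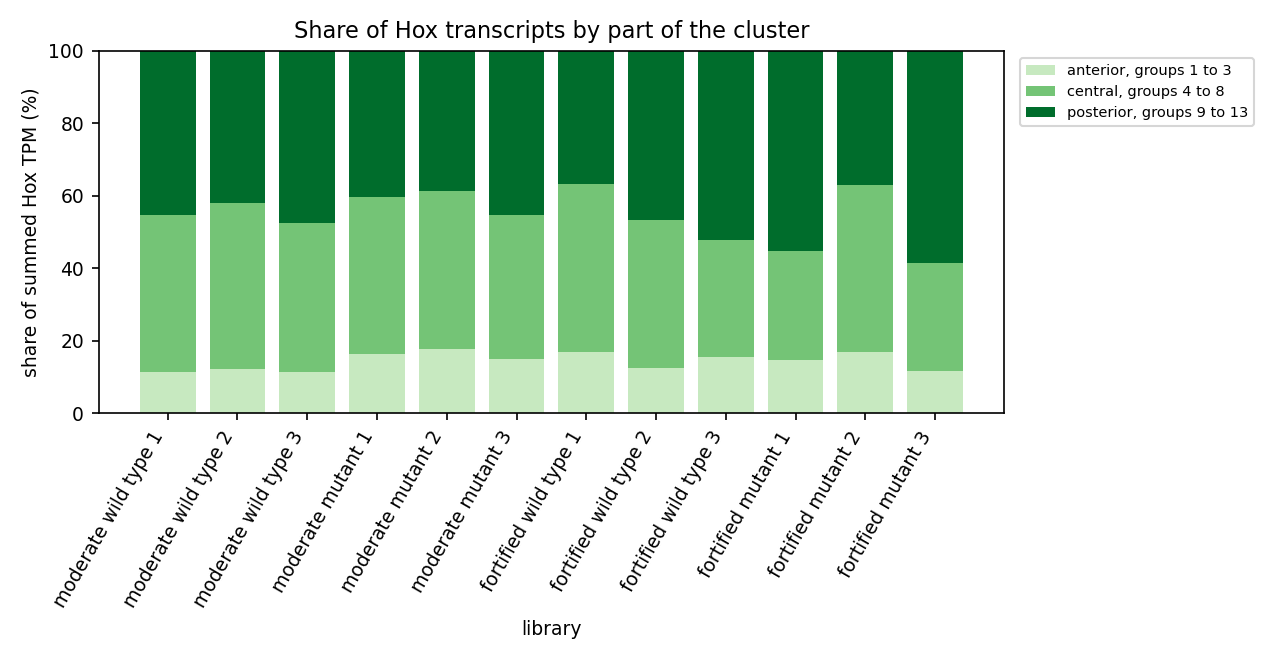
Stacked bars give the share of summed Hox TPM, in percent, held by anterior, central and posterior members in each of the 12 libraries. The posterior share exceeds 50% in fortified wild type 3 and fortified mutants 1 and 3 and stays under it in the other 9 libraries.

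Fortified against moderate folic acid, averaged over both genotypes, was the comparison in which Hox genes passed the test. Hoxb9, Hoxd9 and Hoxc13 were lower in fortified cells, and 0 members were called higher. The 3 called members (adjusted p under 0.05, edgeR's quasi-likelihood test with Benjamini-Hochberg adjustment over all genes) were among 38 tested, where 17.8% of all tested genes were called in either direction and 8.86% were called lower. The count of members called lower was thus near the background for that direction, and the count in either direction below its background. All 3 are posterior genes: Hoxb9 and Hoxd9 are paralogues that act in the thoracic and lumbar region and the limb, and Hoxc13 is known for hair and nail formation.

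Hoxb9 CPM were 88.7, 68.9 and 60.5 in the moderate wild-type libraries, 57.6, 65.2 and 53.4 in the moderate mutant, 44.0, 48.4 and 34.9 in the fortified wild-type and 39.2, 52.2 and 31.3 in the fortified mutant libraries. Every fortified library lay below every moderate one, with 65.7 ± 12.51 CPM (SD, n = 6) in moderate and 41.7 ± 7.999 CPM (SD, n = 6) in fortified cells. The fitted log2 fold change was -0.65 ± 0.15 (SE), with an adjusted p of 0.0155 in edgeR. Hoxd9 CPM were 6.12, 5.12 and 6.47 in the moderate wild-type libraries, 6.70, 6.999 and 4.88 in the moderate mutant, 4.08, 3.42 and 3.08 in the fortified wild-type and 2.91, 2.98 and 3.99 in the fortified mutant libraries. The 6 fortified values again lay below all 6 moderate ones (6.05 ± 0.867 CPM (SD, n = 6) against 3.41 ± 0.515 CPM (SD, n = 6)), and the log2 fold change was -0.83 ± 0.18 (SE) with an edgeR adjusted p of 0.0140. These were the 2 of 38 members whose moderate and fortified libraries did not overlap, which held for 6.37% of all tested genes. Hoxc13 CPM were 5.99, 3.86 and 4.91 in the moderate wild-type libraries, 3.71, 4.70 and 3.18 in the moderate mutant, 2.60, 3.13 and 1.79 in the fortified wild-type and 1.39, 2.11 and 3.46 in the fortified mutant libraries. Its ranges overlapped through fortified mutant 3, the mean was 4.39 ± 1.02 CPM (SD, n = 6) against 2.41 ± 0.796 CPM (SD, n = 6), and the log2 fold change was -0.85 ± 0.27 (SE) (adjusted p = 0.0455, edgeR). The other paralogues of group 9 did not pass the test: the log2 fold change was 0.03 ± 0.19 (SE) for Hoxa9 and 0.22 ± 0.19 (SE) for Hoxc9, with adjusted p of 0.919 and 0.444 in edgeR. The difference between paralogues was not tested.

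The calls depended on which libraries entered. All 6 mutant libraries carried Xist, the RNA of the inactive X chromosome, against 2 of 6 wild-type ones. With only those 8 libraries, moderate wild type 1 and fortified wild type 1 were each the sole library of their group. Whether the calls hold among them can therefore not be decided. The log2 fold change in that fit was -0.77 for Hoxb9, -0.76 for Hoxd9 and -0.98 for Hoxc13. Hoxc13 lost its call in 10 of the 12 fits that left out 1 library, while Hoxb9 and Hoxd9 kept theirs in 12 of 12. When moderate wild type 1 and fortified mutants 2 and 3 were dropped, fortified mutant 1 was the sole fortified mutant library, so calls of that fit are left out. Leaving out moderate wild type 1 alone gave 5 called members, with Hoxa10 and Hoxb2 higher and Hoxb7, Hoxb9 and Hoxd9 lower. The share of all genes called in that fit is not given here, so the 5 have no background beside them.

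By position in the cluster, called members included, the estimates lay on different sides of 0. Of 15 central members 13 had negative log2 fold changes (median -0.36), and of 16 posterior members 12 had positive ones (median 0.15), against a median of 0.000359 over all tested genes. For the 38 members together the median was -0.0533. Genes of a cluster share regulation and reads of overlapping models, so they are not independent, and these counts carry no test. Hoxb2 came nearest to a call in the upward direction, at 0.47 ± 0.17 (SE) with an edgeR adjusted p of 0.0690; its CPM were 15.7, 14.1 and 11.7 in the moderate wild-type libraries, 15.8, 16.5 and 12.2 in the moderate mutant, 22.4, 19.4 and 19.6 in the fortified wild-type and 20.8, 24.4 and 12.9 in the fortified mutant libraries. Hoxa13, Hoxd12 and Hoxd13 had log2 fold changes of 0.75, 0.91 and 0.69, with SEs of 0.35, 0.43 and 0.32 and edgeR adjusted p of 0.156, 0.162 and 0.158.

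**Figure D4:**
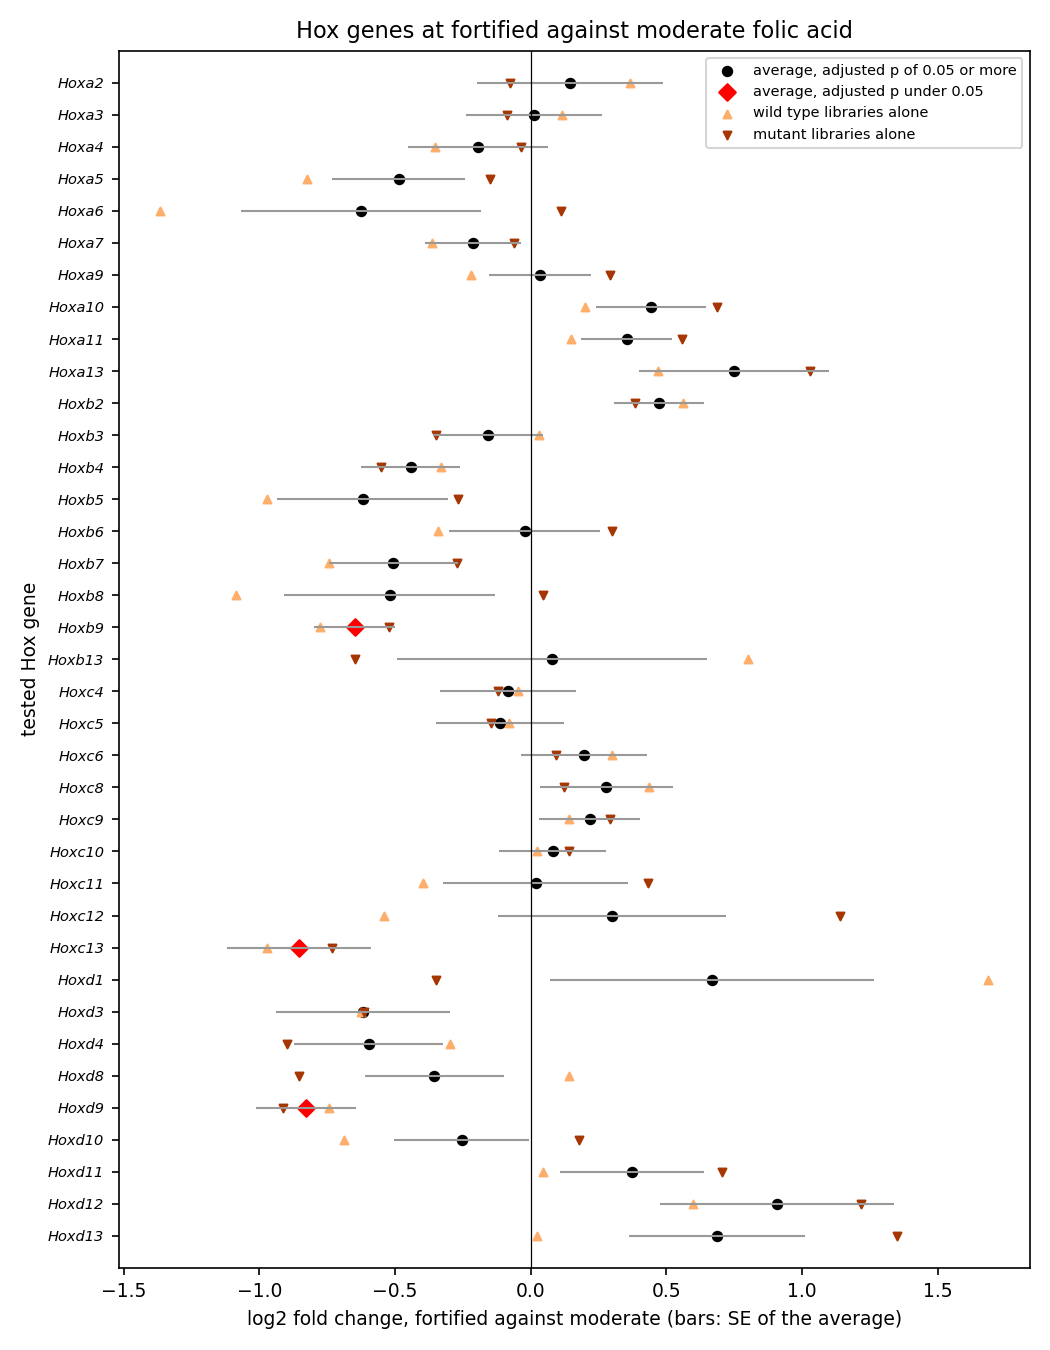
Log2 fold change, fortified against moderate, for tested Hox genes: circles or diamonds give the average of both genotypes with its SE, triangles the estimates in wild-type and mutant libraries alone. The 3 red diamonds, Hoxb9 (-0.65), Hoxc13 (-0.85) and Hoxd9 (-0.83), are the members with adjusted p under 0.05.

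Within wild-type cells alone, 0 of 38 members were called between folic acid levels by edgeR, against 4 genes (0.0263%) of the whole table. At an unadjusted p under 0.05 there were 6 members, DESeq2 called 2 (Hoxb9 and Hoxd9, both lower) and the limma fits called 0. The share of all genes that DESeq2 called is not given here. The smallest p values belonged to Hoxb9 (-0.78 ± 0.21 (SE), adjusted p = 0.0974, edgeR), Hoxd9 (-0.74 ± 0.26 (SE), 0.159) and Hoxc13 (-0.97 ± 0.38 (SE), 0.184). Groups did not overlap for 7 members, Hoxb2 higher and Hoxa5, Hoxb4, Hoxb5, Hoxb9, Hoxc13 and Hoxd9 lower in fortified cells, where 20.6% of all genes showed such separation. The median log2 fold change of the 38 members was -0.0627, beside -0.0368 for all genes.

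Within mutant cells, edgeR likewise called 0 of 38 members, although 1053 genes (6.93%) of the table were called; 7 members had an unadjusted p under 0.05. Here the smallest p values were those of Hoxd9 (-0.91 ± 0.26 (SE), adjusted p = 0.0566, edgeR), Hoxd13 (1.35 ± 0.46 (SE), 0.0942) and Hoxb9 (-0.52 ± 0.21 (SE), 0.147). The result turned on the tool: DESeq2 called 2 members (Hoxd13 higher, Hoxd9 lower), limma on log2 TPM 4 (Hoxb4, Hoxb9, Hoxd8 and Hoxd9, all lower, on a scale where the median of all genes was -0.27) and limma-voom with quality weights 7 (Hoxc12 higher, and Hoxb4, Hoxb9, Hoxc13, Hoxd4, Hoxd8 and Hoxd9 lower). The share of all genes that DESeq2 and limma called is not given here, so their counts have no background beside them. Hoxd9 was also called by edgeR once moderate wild type 1 or 3 was left out. Groups did not overlap for 6 members, Hoxa10 and Hoxc12 higher and Hoxb9, Hoxd4, Hoxd8 and Hoxd9 lower, against 38.2% of all genes. Hoxd13 was at 21.1 to 26.2 CPM in moderate mutants and at 73.1 and 80.2 CPM in fortified mutants 3 and 1, but fortified mutant 2, at 24.9 CPM, stayed in the moderate range. The median over the 38 members was -0.0476, beside 0.0402 for all genes. The wild-type and mutant comparisons share no library. Both came from 1 model of all 12 libraries with a shared estimate of the spread, so the tests are not fully independent.

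**Figure D5:**
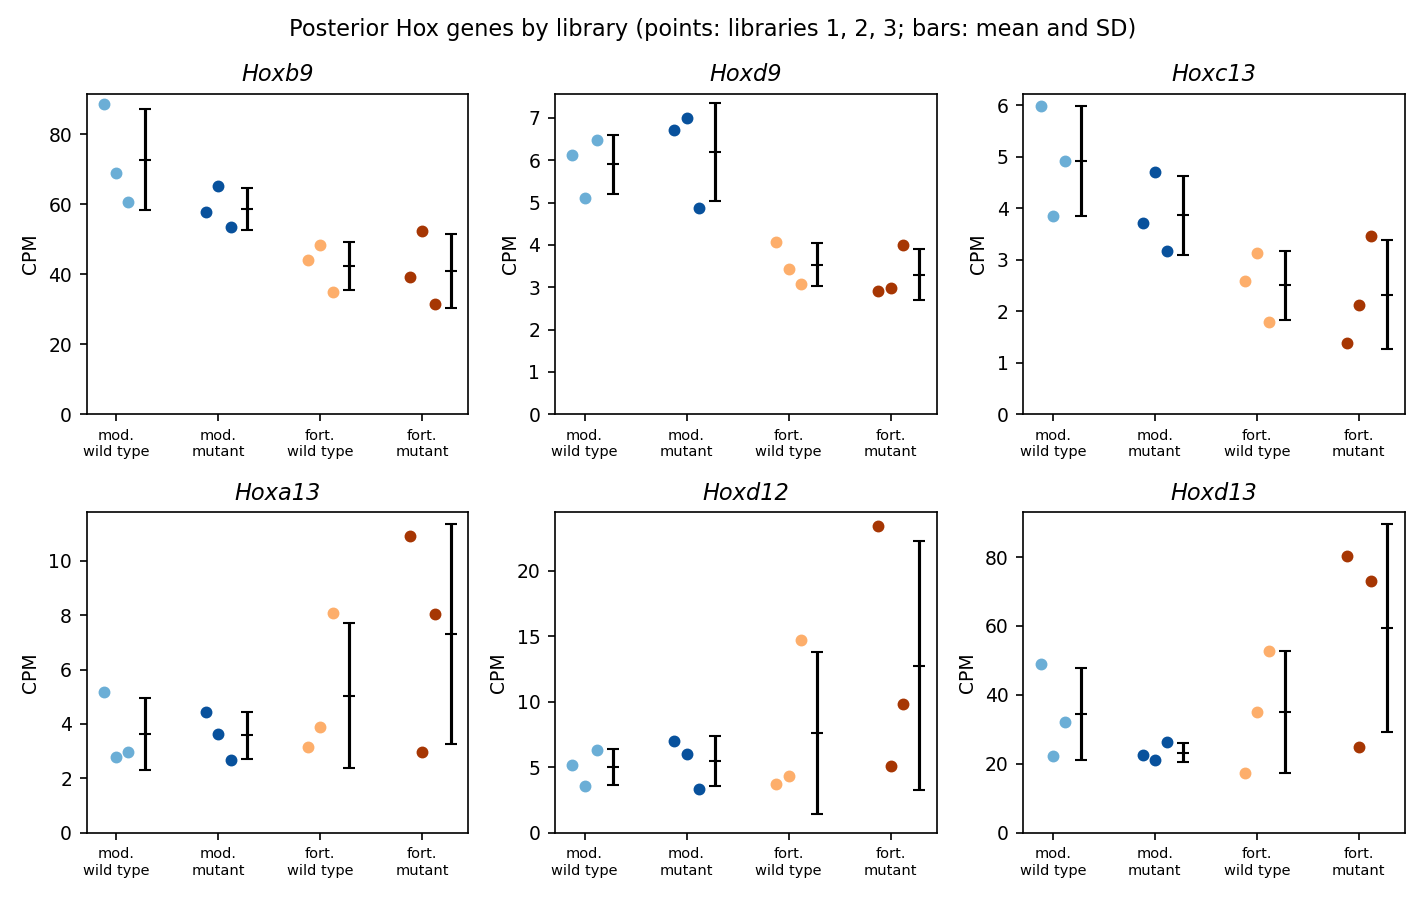
CPM of 6 posterior Hox genes in each library (points, 3 per group), with the mean and SD of each group beside them. Hoxb9 and Hoxd9 show 6 fortified points below all 6 moderate ones, while Hoxa13 and Hoxd12 show 1 fortified wild-type and 2 fortified mutant points above the rest.

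The Rsg1 genotype left no Hox gene past the threshold. At moderate folic acid edgeR called 0 of 38 members and 0% of all tested genes, no member had an unadjusted p under 0.05, and DESeq2 and the limma fits also called 0 members. The smallest p values were those of Hoxc9 (-0.52 ± 0.26 (SE)), Hoxc12 (-1.19 ± 0.60 (SE)) and Hoxb7 (-0.64 ± 0.34 (SE)), with edgeR adjusted p of 0.656, 0.656 and 0.668. Hoxc9, a trunk gene, was at 13.5, 9.23 and 9.34 in the moderate wild-type libraries, 8.95, 8.21 and 5.18 in the moderate mutant, 11.9, 13.7 and 9.82 in the fortified wild-type and 8.56, 10.8 and 8.02 in the fortified mutant libraries, in CPM. Hoxc12, a tail and hindlimb gene, was at 2.34, 0.643 and 0.642 in the moderate wild-type libraries, 0.562, 0.626 and 0.400 in the moderate mutant, 1.13, 0.793 and 0.567 in the fortified wild-type and 0.654, 0.928 and 1.94 in the fortified mutant libraries, in CPM. Hoxb7, a trunk gene, was at 5.67, 9.08 and 13.03 in the moderate wild-type libraries, 5.54, 6.71 and 5.63 in the moderate mutant, 5.76, 6.37 and 4.47 in the fortified wild-type and 4.96, 6.54 and 3.33 in the fortified mutant libraries, in CPM. For Hoxc12 1 wild-type library, moderate wild type 1, stood far above the others, and for Hoxb7 the same library lay among the mutants. Moderate groups did not overlap for Hoxa11, Hoxc9 and Hoxc12, all lower in mutants, though for Hoxc12 only by 0.626 against 0.642 CPM. That was 3 of 38 members, beside 13% of all genes.

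By position, 7 of 7 anterior members had higher fitted levels in moderate mutants (median 0.35), while 13 of 16 posterior members had lower ones (median -0.34). These counts carry no test either. The median of all 38 was -0.23, beside -0.0542 for all tested genes, and it turned to 0.14 when moderate wild type 1 was left out. At fortified folic acid edgeR again called 0 of 38 members and 0% of all genes, with an unadjusted p under 0.05 for 2 (Hoxa4 and Hoxc8); DESeq2 and limma called 0 members. Hoxa4, a cervical gene, was at 3.96, 2.62 and 2.29 in the moderate wild-type libraries, 5.12, 4.74 and 2.98 in the moderate mutant, 2.03, 1.95 and 2.97 in the fortified wild-type and 3.37, 5.93 and 3.23 in the fortified mutant libraries, in CPM. Hoxc8 was at 27.1, 22.9 and 11.5 in the moderate wild-type libraries, 18.4, 15.2 and 10.7 in the moderate mutant, 36.5, 26.7 and 19.9 in the fortified wild-type and 17.6, 19.7 and 10.98 in the fortified mutant libraries, in CPM. Hoxd8, a trunk and kidney gene, was at 7.22, 9.97 and 10.6 in the moderate wild-type libraries, 10.7, 11.7 and 10.5 in the moderate mutant, 15.4, 8.998 and 6.35 in the fortified wild-type and 9.22, 4.88 and 4.12 in the fortified mutant libraries, in CPM. Fortified mutant 2 was the highest library for Hoxa4 and fortified wild type 1 for Hoxc8 and Hoxd8, and the fortified groups overlapped for Hoxd8 only. Their log2 fold changes, mutant against wild type at fortified folic acid, were 0.85 ± 0.37 (SE), -0.79 ± 0.35 (SE) and -0.75 ± 0.36 (SE), each with an edgeR adjusted p of 0.939. Hoxa4, Hoxa5 and Hoxd10 were higher in every fortified mutant library than in any fortified wild-type one and Hoxc8 was lower, 4 of 38 members beside 10.3% of all genes. The median was 0.0753 for the members and 0.00692 for all genes.

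Averaged over both folic acid levels, the genotype contrast called 0 of 38 members and 0% of all genes in edgeR, and DESeq2 and limma called 0 members. An unadjusted p under 0.05 was found for 3 members: Hoxa4 at 0.69 ± 0.26 (SE), Hoxc8 at -0.63 ± 0.25 (SE) and Hoxc9 at -0.45 ± 0.19 (SE), each with an edgeR adjusted p of 0.986. HoxC was lower in mutants for 8 of 9 members (median -0.35), and the anterior members were higher for 7 of 7 (median 0.26), beside a median of -0.0232 for all genes. At fortified folic acid alone, 4 of 7 anterior members were higher (median 0.0881) and 7 of 9 HoxC members lower (median -0.17). Members of a cluster are not independent, and these counts carry no test. Since 6 of 6 mutant and 2 of 6 wild-type libraries carried Xist, genotype and the sex of the embryos were partly confounded. With the 8 libraries that carried Xist the median of the 38 members at moderate folic acid was -0.54, where moderate wild type 1 was the sole moderate wild-type library. The interaction of genotype and folic acid called 0 of 38 members and 0% of all genes in edgeR, with 0 members at an unadjusted p under 0.05 and 0 by DESeq2 and limma. Its smallest p values were those of Hoxd13 (1.33 ± 0.65 (SE)), Hoxc12 (1.68 ± 0.84 (SE)) and Hoxd8 (-0.99 ± 0.51 (SE)), all at an edgeR adjusted p of 0.708. For the members called in the folic acid average the interaction was 0.26 ± 0.30 (SE) for Hoxb9, -0.17 ± 0.37 (SE) for Hoxd9 and 0.24 ± 0.53 (SE) for Hoxc13 on the log2 scale, with edgeR adjusted p of 0.828, 0.918 and 0.918.

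Genes that act with or on Hox genes were examined in the same folic acid average. Among 9 TALE cofactors 1 was lower, Meis2, a partner of Hox proteins in limb and brain, at 65.3 to 108 CPM in moderate and 54.1 to 67.8 CPM in fortified libraries (-0.50 ± 0.14 (SE), adjusted p = 0.0330, edgeR). Next was Pbx3 at 0.41 ± 0.19 (SE) (adjusted p = 0.160). Among the Polycomb genes Bmi1, a core subunit of the complex that places the H2A mark, was at -0.54 ± 0.17 (SE) (adjusted p = 0.0518). Among 12 trithorax-related genes 2 were lower and 1 higher. Rbbp5, a core subunit of the H3K4 methyltransferases, was lower without overlap, at 42.2 to 64.0 CPM in moderate and 30.7 to 36.0 CPM in fortified libraries (-0.66 ± 0.12 (SE), adjusted p = 0.00692), as was the methyltransferase Kmt2a with overlap (-0.56 ± 0.16 (SE), adjusted p = 0.0346). Men1, the Kmt2a partner menin, was higher (0.39 ± 0.10 (SE), adjusted p = 0.0207). The background was the same 17.8% of tested genes.

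Of 10 tested inducers of axial Hox expression 1 was higher, Crabp1, a retinoic acid binding protein, at 12.99 to 144 CPM in moderate and 88.0 to 477 CPM in fortified libraries (1.76 ± 0.47 (SE), adjusted p = 0.0271, edgeR), and its relative Crabp2 was at 1.06 ± 0.40 (SE) (adjusted p = 0.0833). Of 12 tested neighbours of the clusters Smug1, a DNA glycosylase beside HoxC, was lower (-0.54 ± 0.11 (SE), adjusted p = 0.00962) and Skap2, an adaptor protein beside HoxA, higher (0.59 ± 0.19 (SE), adjusted p = 0.0479). Among 11 tested noncoding RNAs of the clusters the transcript Gm53 was lower (-0.71 ± 0.22 (SE), adjusted p = 0.0450, edgeR), and Hoxa11os was at 0.54 ± 0.24 (SE) (adjusted p = 0.132). Hoxa11 itself, on the other strand, was at 0.35 ± 0.17 (SE). With only the 8 libraries carrying Xist, each of the called genes kept its direction. Whether the calls hold there cannot be decided, since each wild-type group then had a sole library. Leaving out 1 library at a time kept Rbbp5 and Smug1 in 12 of 12 fits and Kmt2a in 4, Meis2 in 5, Crabp1 in 6, Men1 in 7 and Skap2 and Gm53 in 2.

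In the genotype average 0 genes of these 6 lists were called by edgeR, beside 0% of all genes, and the adjusted p was 0.986 for each. The smallest unadjusted p values belonged to Pbx2 (0.22 ± 0.16 (SE)) and Pbx3 (0.26 ± 0.19 (SE)) among TALE cofactors and to Phf19 (-0.65 ± 0.23 (SE)) and Cbx2 (0.43 ± 0.16 (SE)) among Polycomb genes. For the trithorax-related list they were the demethylases Kdm6b (0.38 ± 0.11 (SE)) and Kdm6a (0.47 ± 0.19 (SE)), the latter an X-linked gene that escapes X inactivation. Among the inducers they were Crabp1 (-1.56 ± 0.47 (SE)) and Cyp26b1, a retinoic acid degrading enzyme (0.60 ± 0.22 (SE)). Beside the clusters they were Evx1 (1.20 ± 0.55 (SE)) and Skap1 (-0.67 ± 0.60 (SE)), and among noncoding RNAs Gm53 (-0.44 ± 0.22 (SE)) and 5730457N03Rik (1.26 ± 0.65 (SE)).

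Hox clusters also encode microRNAs that are known to target Hox messages, and their sequences bear on which members could be linked after transcription. The mature forms, with the seed (bases 2 to 8) in capitals, are shown with 1 matching site each for Hoxa5, Hoxc8 and Hoxb3, the highest-expressed members holding a match in their clusters, where capitals mark the bases complementary to the seed.
mmu-miR-196a-5p: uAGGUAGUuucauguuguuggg
mmu-miR-10a-5p: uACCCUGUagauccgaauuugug
Hoxa5, miR-196 match: gatatttttattcaaACTACCTa
Hoxc8, miR-196 match: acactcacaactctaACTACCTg
Hoxb3, miR-10 match: tgacttaacgtgaaaACAGGGTa
The miR-196 word was found in the 3′ UTR of 9 of 39 Hox genes (23.1%), among them Hoxa5, Hoxa7, Hoxb7 and Hoxc8, and of 6.61% of all annotated genes. The miR-10 word was found in 4 of 39 (10.3%) and 12.5%. None of the called members, Hoxb9, Hoxd9 and Hoxc13, held either word. Libraries of polyadenylated RNA do not capture mature microRNAs, so their levels are not measured here, and the matches are a description of sequence.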

How the data were processed

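RNA with a poly(A) tail from the 12 fibroblast cultures was extracted with trizol and chloroform and made into libraries with a Tecan Universal Plus kit, per the labels' protocols. The authors deposited expected counts and TPM per gene; the genome build is mm10 per the submitters' processing notes, and the quantifier's version, annotation and strand setting were not given in the sources used. Genotype and number came from the column names, folic acid level from the column number in the labels' descriptions.

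Expected counts, as the authors deposited them, were rounded and fitted in edgeR 4.0.16 (R 4.3.3): TMM scaling, filterByExpr (minimum count 10, minimum total 15; 15186 genes kept, 9093 removed), 1 mean per group over all 12 libraries, glmQLFTest for 7 contrasts, and Benjamini-Hochberg adjustment over all tested genes with a threshold of 0.05. CPM use TMM-scaled totals; log2 CPM used a prior count of 2. Levels between genes were compared on the deposited TPM values only. Groups do not overlap when every library of the first lies beyond every library of the second. A score is the mean over a list of log2 CPM minus each gene's own mean. The procedure was tested on simulated data.

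Named members were the 2 of highest mean TPM per cluster, the 3 of smallest p in each of the first 4 contrasts and the 4 of largest SD among those with a mean of at least 1 TPM; from the other lists, the 2 genes of smallest p in each average. The members, lists and rules were chosen with earlier results of these data known. A few genes are not reported here. Alternatives were DESeq2 1.42.0, limma 3.58.1 on log2(TPM + 1) or log2(TPM + 0.1), limma-voom with quality weights, other scalings and filters, a replicate block, fits on the 2 groups compared, and leaving out each library. Fits without the 3 libraries at the upper end of the leading component, and with only the 8 libraries holding at least 1000 Xist counts, were chosen after seeing the data. The former kept moderate wild type 2 and 3, which lay at the opposite end.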

Additional observations from a re-analysis of the deposited data

How the results depend on the processing

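Across 23 alternatives of the folic acid average, Hoxb9, Hoxd9 and Hoxc13 stayed lower in fortified cells in 23. Some of these fits leave a group with a sole library, so calls are tallied over the leave-one-out fits only. In those, Hoxb9 and Hoxd9 stayed past the threshold in 12 of 12 and Hoxc13 in 2 of 12. The number of called Hox genes, 3 as reported, was 5 in limma on log2(TPM + 1), 5 on log2(TPM + 0.1), and 2 to 5 over the fits that left out 1 library each (5 without moderate wild type 1). In mutant cells, where 0 were called, it was 2 in DESeq2, 4 in limma with either pseudocount, 7 in limma-voom, and 0 to 1 over the leave-one-out fits (1 when either of moderate wild type 1 and 3 was dropped). In wild-type cells it was 2 in DESeq2. The share of all genes called in each alternative is not given here, so these counts have no background beside them. Counts are left out for the fit with only the 8 Xist libraries. They are also left out for the fit without the 3 libraries at the upper end of the leading component. Both fits leave a group with a sole library. For the other contrasts 0 Hox genes were called in each alternative run.

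The median log2 fold change of the Hox genes moved by more than 0.27 (the SD of the mean Hox score within groups) as follows. For genotype at moderate folic acid (-0.23 as reported) it was 0.15 in limma-voom, 0.17 without the 3 libraries, -0.54 with the Xist libraries, and -0.33 to 0.14 over the leave-one-out fits, the highest without moderate wild type 1. For folic acid it was -0.47 in wild type with the Xist libraries and -0.33 in mutants in limma on log2(TPM + 0.1). For the genotype average it was -0.32 with the Xist libraries, and for the interaction -0.0492 in limma-voom and -0.30 without the 3 libraries. Each wild-type group had a sole library in the Xist fit, as had the fortified mutant group in the fit without the 3 libraries. The cause of these shifts was not tested. Of 357 values for single named members 328 kept their direction and side of the threshold, 15 lost and 13 gained a call, and 1 reversed: Hoxb7, mutant against wild type at moderate folic acid, at 0.0960 with the Xist libraries. The 357 values include the fits with a sole library in a group, where a lost or gained call decides nothing. The median of all genes itself shifted to -0.13 in wild-type cells under library totals alone, and to -0.17 in the folic acid average under limma on log2(TPM + 1).

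Same-numbered libraries of different groups did not deviate together (correlation -0.48 to 0.24 over 18 pairs, over 0.1 in 4), so the numbers were not taken to pair the samples. With a replicate block 3 Hox genes were called in the folic acid average, Hoxb9 and Hoxd9 lower and Hoxb2 higher, with Hoxc13 at an adjusted p of 0.0761, and 0 in the other contrasts.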
